A study of Mus musculus with 28 samples.

Results

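The 9 genes described here are those by which a cadherin switch and an epithelial to mesenchymal transition (EMT) are usually followed: Cdh1, Cdh2, Epcam, Vim, Fn1, Zeb1, Zeb2, Snai2 and Twist1. They were taken by symbol from a table of 17342 genes measured by RNA-seq, and 9 of 9 were found. The cells were mouse embryonic stem cells (ESCs) of the line V6.5, male and of mixed 129 and C57BL/6 origin, and they shared a culture in serum with LIF, a cytokine that sustains self-renewal. They carried wild-type Tet2 (Tet2-WT, n = 3 independent ESC samples), a mutant Tet2 (Tet2-Mut, n = 2 clones) or a knockout of Tet2 (Tet2-KO, n = 2 clones). Tet2 is an enzyme that oxidizes 5-methylcytosine, and the series asks what it does apart from catalysis, so that Tet2-KO was set against Tet2-Mut as well as each against Tet2-WT. The labels describe neither the mutation nor how the clones were derived. Feeder cells had been removed by pre-plating, after which the cells spent a night on gelatin. A p-value here sets a difference against a spread shared by all groups, not against that of the 2 clones alone. With groups of 2 clones, genotype and clone cannot be told apart.

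E-cadherin, the product of Cdh1, joins epithelial cells at adherens junctions, and ESC colonies are held together by it. In an EMT, cells lose E-cadherin and gain N-cadherin, the product of Cdh2, together with the intermediate filament vimentin and the matrix protein fibronectin. Transcription factors of the Zeb, Snai and Twist families bind E-boxes, short CANNTG motifs, and are known as repressors of epithelial genes. The same program runs in the embryo when epiblast cells pass through the primitive streak.

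The promoters of Epcam and Vim are shown because Epcam was the member with the smallest differences between groups and Vim the member with the lowest adjusted p, and because they differ in E-boxes. The sequences are RefSeq's for GRCm38.p6, from 250 bases before to 50 bases after the start of the gene, both on the + strand, 5′ to 3′. Capitals mark E-boxes, searched as CANNTG, which reads the same on both strands. The Epcam window lies at chr17:87635729-87636028 and the Vim window at chr2:13574061-13574360.
Epcam: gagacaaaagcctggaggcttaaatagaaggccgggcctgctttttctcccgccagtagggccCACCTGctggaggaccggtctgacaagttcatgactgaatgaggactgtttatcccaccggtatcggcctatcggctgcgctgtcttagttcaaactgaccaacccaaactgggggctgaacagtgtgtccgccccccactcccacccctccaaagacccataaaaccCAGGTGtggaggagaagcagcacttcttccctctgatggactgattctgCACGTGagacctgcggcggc
Vim: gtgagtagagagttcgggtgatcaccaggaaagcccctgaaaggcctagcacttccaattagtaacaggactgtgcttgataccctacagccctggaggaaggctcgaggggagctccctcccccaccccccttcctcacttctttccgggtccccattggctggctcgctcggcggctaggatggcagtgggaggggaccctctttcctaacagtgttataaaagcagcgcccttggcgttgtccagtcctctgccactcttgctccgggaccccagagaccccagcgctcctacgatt
The Epcam window held 3 E-boxes, 2 of which were CAGGTG or its reverse complement CACCTG, and the Vim window held 0. Promoters were matched for 4 members, Cdh1 not among them, and the windows of Twist1 and of the 4 starts of Zeb2 held 0 E-boxes as well. Among 15429 promoters of tested genes 64.8% held a CANNTG, and 19.4% held CAGGTG or CACCTG.

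Values are normalized counts, that is, reads assigned to a gene divided by a size factor for each library. They compare libraries for 1 gene and not genes with each other, since they are not divided by gene length. Recovered read totals ran from 41.9 M to 58.5 M per library. Tet2 itself was 10244 to 12074 in Tet2-WT, 9992 and 13181 in Tet2-Mut and 4624 and 5206 in Tet2-KO, which gave Tet2-KO a log2 fold change of -1.15 relative to Tet2-WT (SE 0.12, limma adjusted p = 0.00522); the count covers the whole gene and does not show whether a protein is made. ESC identity genes were present in every library: the summed normalized count of 18 pluripotency markers was 409434 to 419716 in Tet2-WT, 407433 and 422874 in Tet2-Mut and 362408 and 417972 in Tet2-KO, lowest in Tet2-KO replicate 1, with none at 0. Of the 18, 1 rose and 2 fell in Tet2-KO against Tet2-WT, with a median log2 fold change of -0.16: Lin28a (0.73), which encodes an RNA-binding protein that blocks let-7 maturation, Tbx3 (-0.87), a T-box factor of self-renewal, and Tdgf1 (-0.37), the gene of the Nodal co-receptor Cripto. In Tet2-Mut against Tet2-WT 0 rose and 2 fell, Tbx3 (-1.17) and the homeodomain factor gene Nanog (-0.37), with a median of 0.0047. Between Tet2-KO and Tet2-Mut, Lin28a was higher (0.52) and Dppa2 (-0.61) and Dppa4 (-0.42) lower, with a median of -0.11. Without 1 library these 3, 2 and 3 calls ran from 0 to 8, 0 to 6 and 1 to 6, with 0 in the first comparison without any 1 Tet2-WT library and 0 in the second without Tet2-WT replicates 1 or 2. In bulk RNA, fewer cells of a type and less RNA per cell cannot be told apart.

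Few of the 9 genes passed the test in any comparison. Calls were made with limma on log2(normalized count + 1) at an adjusted p under 0.05 over all 17338 genes tested, in a single model of the 7 libraries. Where leaving out a library left a group with 1, that library was assumed to vary like the other groups. Against Tet2-WT, Cdh2 rose in Tet2-KO and Cdh1 rose in Tet2-Mut. Between the mutant genotypes, Vim was higher and Cdh1 lower in Tet2-KO than in Tet2-Mut. These are 1 of 9 members for Tet2-KO against Tet2-WT, where 5.91% of all genes passed (3% higher and 2.91% lower), 1 of 9 for Tet2-Mut against Tet2-WT, where 3.43% passed (1.44% higher and 1.98% lower), and 2 of 9 for Tet2-KO against Tet2-Mut, where 6.19% passed (2.64% higher and 3.55% lower). The median log2 fold change of the 9 members was 0.21, 0.06 and 0.10 in these comparisons, and that of all genes was -0.00, 0.01 and 0.00. The comparisons share libraries and are not independent of each other.

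**Figure D1:**
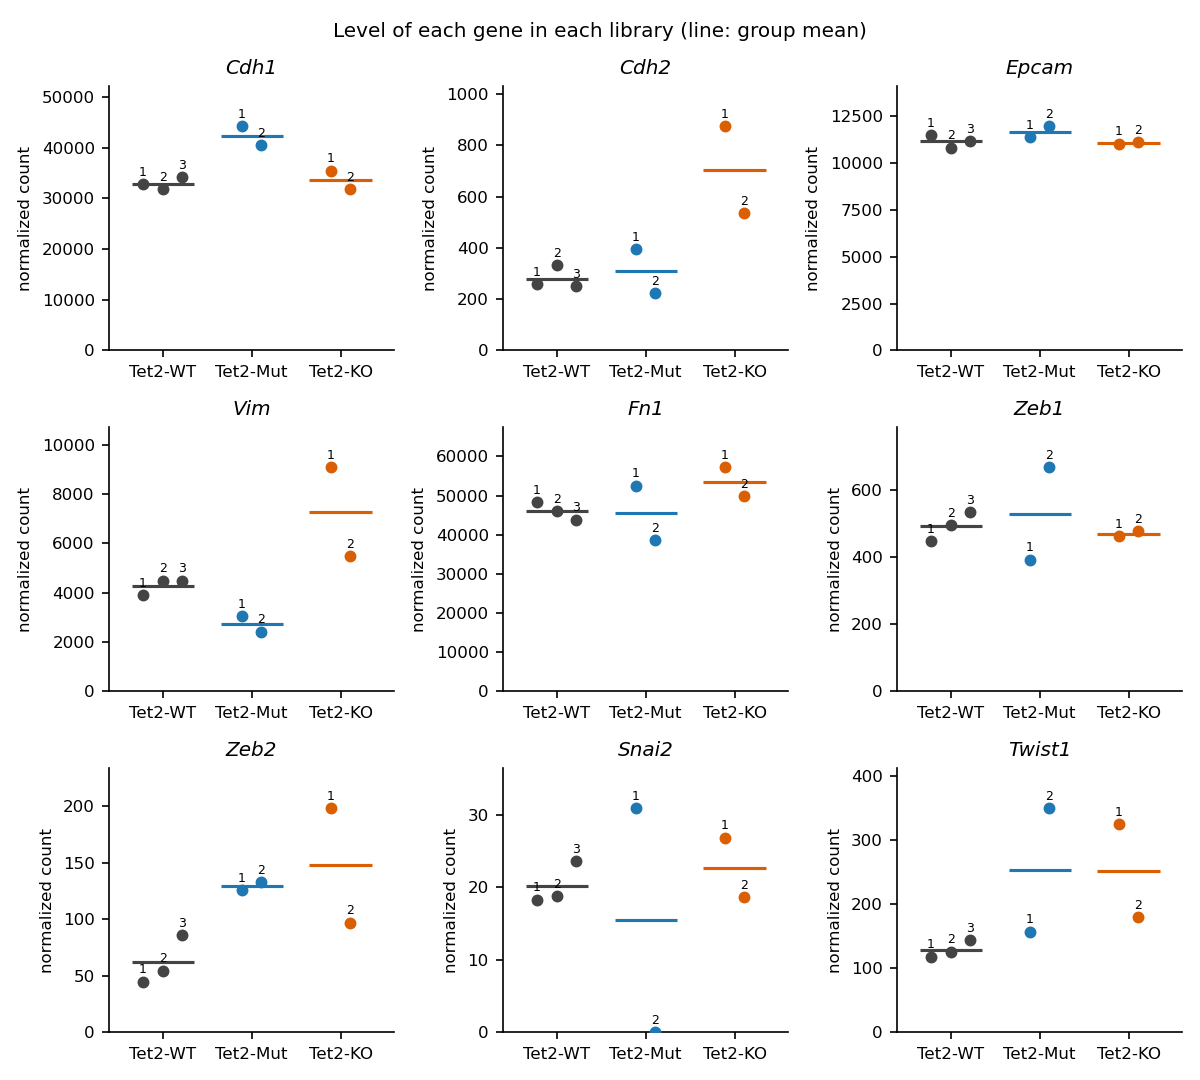
Normalized count of each of the 9 genes in each library (points, numbered by replicate) with the group mean (line); the vertical axes start at 0 and differ between panels. The Tet2-KO libraries lie above all Tet2-WT libraries for Cdh2, Vim, Fn1, Zeb2 and Twist1, and the Tet2-Mut libraries lie below them for Vim and above them for Cdh1, Zeb2 and Twist1.

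Cdh1 (chromosome 8, 106603350 to 106670247) was not below Tet2-WT on average in either genotype. Its normalized count was 32788, 31791 and 34169.6 in Tet2-WT replicates 1, 2 and 3, 44224 and 40557 in Tet2-Mut replicates 1 and 2, and 35442 and 31884 in Tet2-KO replicates 1 and 2. Both Tet2-Mut libraries lay above all 5 others, while the Tet2-KO libraries fell around the Tet2-WT range. The group means were 32916 ± 1195 (SD, n = 3), 42390.2 ± 2593 (n = 2) and 33663 ± 2516 (n = 2). The log2 fold change was 0.36 in Tet2-Mut against Tet2-WT (SE 0.07, limma adjusted p = 0.0335) and 0.03 in Tet2-KO against Tet2-WT (95% interval -0.13 to 0.19, adjusted p = 0.845). Between Tet2-KO and Tet2-Mut it was -0.33 (SE 0.08, adjusted p = 0.0377). The rise in Tet2-Mut missed the threshold without any 1 of the 3 Tet2-WT libraries, with adjusted p of 0.170, 0.172 and 0.0713 without replicates 1, 2 and 3. The difference between Tet2-KO and Tet2-Mut missed it without any Tet2-WT library, without Tet2-Mut replicate 1 or without Tet2-KO replicate 2, with adjusted p up to 0.131.

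The median of the chromosome 8 genes was shifted in both genotypes, in opposite directions, and the called differences of Cdh1 had the direction of that median. Of its 862 tested genes, 695 had a positive log2 fold change in Tet2-Mut against Tet2-WT, with a median of 0.27, and 697 had a negative one in Tet2-KO against Tet2-WT, with a median of -0.26. Genes past the test made up 16.5% and 17.5% of the chromosome, against 2.89% and 5.69% on other chromosomes. For Tet2-KO against Tet2-Mut the median was -0.52, and 46.3% of the chromosome 8 genes passed against 4.34% elsewhere. The 53 tested genes whose positions lie within 1 Mb of Cdh1 had medians of 0.34, -0.29 and -0.57 in the same order. Cdh3, which encodes P-cadherin and lies beside Cdh1 (chromosome 8, 106510852 to 106556911), had log2 fold changes of -0.08, -0.31 and -0.24, none past the test (adjusted p = 0.811, 0.230 and 0.449).

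Set against the rest of its chromosome, Cdh1 was not low in any genotype. In the Tet2-Mut replicates its log2 level stood 0.43 and 0.30 above the Tet2-WT mean, and the median of the 861 other chromosome 8 genes stood 0.28 and 0.27 above theirs. In the Tet2-KO replicates Cdh1 stood at 0.11 and -0.05 and the chromosome at -0.28 and -0.24. Cdh1 therefore lay above its chromosome's median by 0.39 and 0.20 in Tet2-KO, by 0.14 and 0.03 in Tet2-Mut, and within -0.03 to 0.03 of it in Tet2-WT. In Tet2-KO against Tet2-WT, 155 of the 862 genes had a higher log2 fold change than Cdh1. When the genes of chromosome 8 were centred on their median in each library, a setting chosen after these values were seen, the log2 fold change of Cdh1 was 0.10 in Tet2-Mut against Tet2-WT (limma adjusted p = 0.468), 0.29 in Tet2-KO against Tet2-WT (adjusted p = 0.0511) and 0.19 in Tet2-KO against Tet2-Mut (adjusted p = 0.242). Neither call on Cdh1 held, and the sign between Tet2-KO and Tet2-Mut turned. The copy number of chromosome 8 was not measured here. On the chromosomes of the other members, 1, 2, 12, 16, 17 and 18, the median log2 fold change lay between -0.03 and 0.04 in all 3 comparisons. Chromosome 14, which holds no member, was shifted as well where Tet2-Mut was compared. Its median was 0.22 in Tet2-Mut against Tet2-WT, -0.02 in Tet2-KO against Tet2-WT and -0.23 in Tet2-KO against Tet2-Mut.

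**Figure D2:**
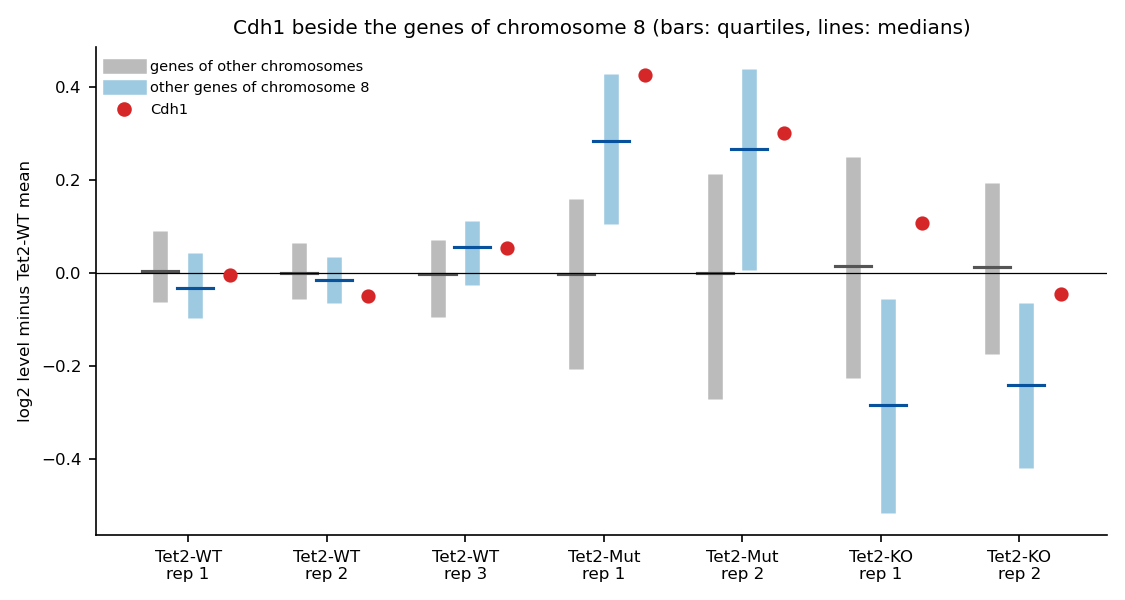
Log2 level minus the Tet2-WT mean in each library, for Cdh1 (points), for the 861 other tested genes of chromosome 8 and for genes of other chromosomes (bars: quartiles; lines: medians). Cdh1 lies within the quartiles of its chromosome in both Tet2-Mut libraries and above the upper quartile in both Tet2-KO libraries.

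Epcam (chromosome 17, 87635979 to 87651127), an epithelial adhesion molecule that ESCs express, hardly varied. Its normalized count was 11478, 10811 and 11144 in Tet2-WT, 11363 and 11944 in Tet2-Mut, and 11021 and 11113 in Tet2-KO. All 7 libraries lay within the narrow span from 10811 to 11944. The log2 fold change was -0.01 in Tet2-KO against Tet2-WT (95% interval -0.14 to 0.13, limma adjusted p = 0.949), 0.06 in Tet2-Mut against Tet2-WT (-0.07 to 0.20, adjusted p = 0.583) and -0.07 in Tet2-KO against Tet2-Mut (-0.22 to 0.07, adjusted p = 0.588). A fall of Epcam larger than 0.14 on the log2 scale lies outside the interval for Tet2-KO against Tet2-WT.

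Cdh2 (chromosome 18, 16588877 to 16809246), the N-cadherin gene, rose in Tet2-KO. Its normalized count was 258, 331 and 250.2 in Tet2-WT, 395 and 224 in Tet2-Mut, and 874 and 536 in Tet2-KO. Both Tet2-KO libraries lay above all others, with replicate 1 well above replicate 2, and the Tet2-Mut clones fell on either side of the Tet2-WT range. The means were 279.9 ± 44.8 (SD, n = 3), 309.6 ± 121 (n = 2) and 705 ± 239 (n = 2). The rise in Tet2-KO against Tet2-WT was 2.46-fold, a log2 fold change of 1.30 (SE 0.28, 95% interval 0.66 to 1.94, limma adjusted p = 0.0328). Against Tet2-Mut it was 1.20 (SE 0.31, adjusted p = 0.0561), which misses the threshold, and Tet2-Mut against Tet2-WT gave 0.10 (95% interval -0.54 to 0.74, adjusted p = 0.881). The call on Tet2-KO against Tet2-WT was lost without Tet2-KO replicate 1, where the log2 fold change was 0.95 and the adjusted p 0.224, and without Tet2-WT replicates 1, 2 or 3, where the adjusted p was 0.123, 0.0857 and 0.120. Against Tet2-Mut it passed by DESeq2 (adjusted p = 0.00197) and without Tet2-Mut replicate 1 (adjusted p = 0.0057) or Tet2-KO replicate 2 (0.0396).

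Beside the rise of Cdh2, Cdh1 was not lower in Tet2-KO than in Tet2-WT. Relative to the Tet2-WT mean, the log2 ratio of Cdh2 to Cdh1 was -0.10, 0.30 and -0.20 in the Tet2-WT libraries, 0.08 and -0.61 in Tet2-Mut, and 1.54 and 0.99 in Tet2-KO. The ratio was thus highest in both Tet2-KO libraries, while their Cdh1 stood within 0.11 of the Tet2-WT mean.

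Vim (chromosome 2, 13574311 to 13582826), which encodes vimentin, the intermediate filament of mesenchymal cells, separated the mutant genotypes. Its normalized count was 3893, 4497 and 4487 in Tet2-WT, 3053 and 2423 in Tet2-Mut, and 9086 and 5487 in Tet2-KO. The 3 groups did not overlap: both Tet2-Mut libraries lay below Tet2-WT and both Tet2-KO libraries above it. The means were 4292 ± 346 (SD, n = 3), 2738 ± 445 (n = 2) and 7286 ± 2545 (n = 2). Vim was 2.6-fold higher in Tet2-KO than in Tet2-Mut, a log2 fold change of 1.38 (SE 0.21, 95% interval 0.91 to 1.85, limma adjusted p = 0.00714). That call held without each of the 7 libraries in turn, with log2 fold changes of 1.01 to 1.74, and was lost with only the 2 groups compared (adjusted p = 0.0807) and with no mean trend in the prior (0.0795). Against Tet2-WT neither genotype passed, with 0.72 in Tet2-KO (SE 0.19, adjusted p = 0.0582) and -0.65 in Tet2-Mut (SE 0.19, adjusted p = 0.0947). By edgeR and DESeq2 the former passed (adjusted p = 0.0423 and 0.00105), and by DESeq2 the latter did (0.00962) but not by edgeR (0.101). With only the 2 groups compared both passed (0.0263 and 0.0228). The value in Tet2-KO depended on the clone: without replicate 1 it was 0.36 (adjusted p = 0.299), and without replicate 2 it was 1.08 (adjusted p = 0.00611). It also passed without Tet2-Mut replicate 1 (adjusted p = 0.0256) or 2 (0.0265). The lower level in Tet2-Mut passed without Tet2-Mut replicate 1 (0.0359) and without Tet2-KO replicate 1 (0.0230) or 2 (0.0235), libraries that enter only through the shared spread in the last 2 cases. The log2 ratio of Vim to Epcam relative to the Tet2-WT mean was -0.18, 0.11 and 0.07 in Tet2-WT, -0.52 and -0.92 in Tet2-Mut, and 1.10 and 0.36 in Tet2-KO.

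Fn1 (chromosome 1, 71585473 to 71653280), the gene of fibronectin, a matrix protein bound by integrins, had normalized counts of 48307, 46050.2 and 43824 in Tet2-WT, 52509 and 38669 in Tet2-Mut, and 57216 and 49846 in Tet2-KO. The Tet2-KO libraries lay just above Tet2-WT, and the Tet2-Mut clones lay on both sides of it. No comparison passed, with log2 fold changes of 0.21 in Tet2-KO against Tet2-WT (95% interval -0.06 to 0.49, limma adjusted p = 0.327), -0.03 in Tet2-Mut against Tet2-WT (-0.30 to 0.24, adjusted p = 0.916) and 0.25 in Tet2-KO against Tet2-Mut (-0.05 to 0.54, adjusted p = 0.340). The last passed without Tet2-Mut replicate 1, with 0.47 (adjusted p = 0.0118).

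**Figure D3:**
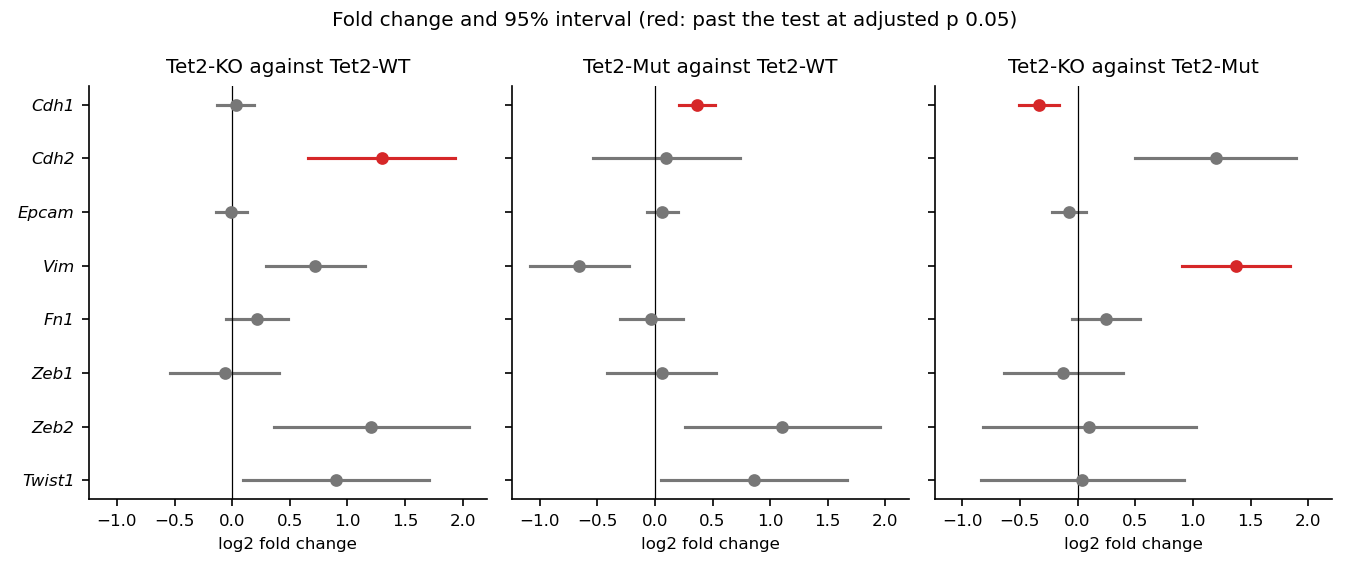
Log2 fold change of 8 of the 9 genes in the 3 comparisons with its 95% interval (red: adjusted p under 0.05); Snai2 is left out because 1 library had no read. Cdh2 at 1.30, Cdh1 at 0.36 and -0.33 and Vim at 1.38 passed.

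None of the 4 transcription factors passed in any comparison with limma; at an unadjusted p under 0.05, 2 of them did in Tet2-KO against Tet2-WT and 2 in Tet2-Mut against Tet2-WT, in each case Zeb2 and Twist1. By edgeR 0 of them passed in any comparison, and by DESeq2 Zeb2 passed in Tet2-KO against Tet2-WT (adjusted p = 0.0175). Zeb1 (chromosome 18, 5591327 to 5775468), a zinc finger repressor of Cdh1, had normalized counts of 448, 496 and 535 in Tet2-WT, 392 and 668 in Tet2-Mut, and 463 and 477 in Tet2-KO. The Tet2-KO libraries lay inside the Tet2-WT range, and the Tet2-Mut clones lay on either side of it. Tet2-KO differed from Tet2-WT by a log2 fold change of -0.06 (95% interval -0.54 to 0.41, limma adjusted p = 0.896).

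Zeb2 (chromosome 2, 44983512 to 45117442), the paralog of Zeb1 and likewise a repressor of Cdh1, had normalized counts of 44.9, 54.6 and 86.2 in Tet2-WT, 126 and 133 in Tet2-Mut, and 198 and 97.2 in Tet2-KO. All 4 libraries of the altered genotypes lay above all 3 of Tet2-WT. The log2 fold change against Tet2-WT was 1.21 in Tet2-KO (SE 0.37, limma adjusted p = 0.0931) and 1.10 in Tet2-Mut (SE 0.37, adjusted p = 0.140), and both missed the threshold. Without Tet2-KO replicate 2 the former was 1.72 and passed (adjusted p = 0.0407), a value of 1 Tet2-KO library against a spread taken from the other groups. An antisense gene, Zeb2os, overlaps Zeb2, and the strand setting of the counting was not given in the sources used here, so reads of the pair cannot be told apart.

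Twist1 (chromosome 12, 33957671 to 33959831), a basic helix-loop-helix factor of mesoderm and neural crest, had normalized counts of 118, 126 and 144 in Tet2-WT, 158 and 350.2 in Tet2-Mut, and 325 and 179.9 in Tet2-KO. Again all 4 libraries of the altered genotypes lay above Tet2-WT, with 1 high clone in each genotype. The log2 fold change against Tet2-WT was 0.90 in Tet2-KO (SE 0.36, limma adjusted p = 0.170) and 0.86 in Tet2-Mut (SE 0.36, adjusted p = 0.212). Without Tet2-Mut replicate 1 both passed, at 0.90 (adjusted p = 0.0482) and 1.43 (adjusted p = 0.019). The former has the same libraries and fold change as before and differs in the shared spread, and the latter is the value of 1 Tet2-Mut library.

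Snai2 (chromosome 16, 14705852 to 14709395), which encodes the repressor Slug, had few reads, with normalized counts of 18.3, 18.8 and 23.6 in Tet2-WT, 30.9 and 0 in Tet2-Mut, and 26.8 and 18.6 in Tet2-KO. The clones of Tet2-Mut were the highest and the lowest of the 7 libraries, and the 0 allows a level of up to 2.89, the value of 3 reads in that library, for counting error only, or a higher one if both mates of a pair were counted. Tet2-KO differed from Tet2-WT by a log2 fold change of 0.15 (SE 1.17, limma adjusted p = 0.962), and fitted values against Tet2-Mut are not read as folds because the library at 0 makes them depend on the pseudocount.

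Groups that do not overlap were common among all genes, and the members' counts are read against that. In Tet2-KO against Tet2-WT, 5 of 9 members did not overlap, all higher (Cdh2, Vim, Fn1, Zeb2 and Twist1), where 44.7% of all genes did not overlap, 21.9% higher and 22.8% lower. In Tet2-Mut against Tet2-WT, 4 of 9 did not overlap, Cdh1, Zeb2 and Twist1 higher and Vim lower, where the share of all genes was 40.7%, 20.9% higher and 19.8% lower. In Tet2-KO against Tet2-Mut, Cdh2 and Vim were higher and Cdh1 and Epcam lower without overlap, and the share of all genes was 44.8%, 23.3% higher and 21.5% lower.

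Other genes of the pathway were followed in lists chosen by function, whose counts stand beside the 5.91%, 3.43% and 6.19% of all genes that passed in Tet2-KO against Tet2-WT, Tet2-Mut against Tet2-WT and Tet2-KO against Tet2-Mut. Of 35 epithelial junction and identity genes, 5 rose in Tet2-KO against Tet2-WT and 0 fell, with a median log2 fold change of 0.11. They included Cgn, which encodes the tight junction protein cingulin (0.53, SE 0.10, limma adjusted p = 0.0239), Marveld2, which encodes tricellulin (0.93), and the epithelial transcription factors Grhl2 (0.63) and Ovol2 (0.69). Of the 35, 21 had a positive log2 fold change in this comparison, and the lowest was -0.72. Elf3 had mean normalized counts of 3978 in Tet2-WT and 2477 in Tet2-KO, and Pkp3 of 985 and 650, neither past the test. The Tet2-Mut libraries showed 1 rise against Tet2-WT, the occludin gene Ocln (0.99), and 1 fall, the epithelial ETS factor Elf3 (-1.12), with a median of -0.05, which is 2 of 35 where 3.43% of all genes passed. The call on Elf3 was lost with upper quartile scaling, quantile normalization, edgeR and chromosome 8 centred, among other settings, with adjusted p up to 0.211. Between Tet2-KO and Tet2-Mut, 5 were higher in Tet2-KO and 0 lower, with a median of 0.15, among them the desmosomal gene Dsp (1.19), the claudins Cldn7 (0.82) and Cldn6 (0.79), and Grhl2 (0.63). The 5 calls against Tet2-WT became 0 when any 1 library of Tet2-WT or the first of Tet2-KO was left out, 14 without either Tet2-Mut library and 7 without the second of Tet2-KO. With only those 2 groups in the fit, 10 passed as higher and 5 as lower.

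Of 36 further EMT factors and mesenchymal genes, 27 had a positive log2 fold change in Tet2-KO against Tet2-WT, with a median of 0.52. In that comparison 10 of the 36 rose and 0 fell. They included the matrix gene Tnc (1.94, SE 0.23, limma adjusted p = 0.00564), the hyaluronan receptor gene Cd44 (1.77), the transcription factor Ets1 (1.52), the receptor tyrosine kinase gene Axl (1.23) and the EMT factor Snai1 (1.06). Snai1, another repressor of Cdh1, had normalized counts of 104, 88.5 and 125 in Tet2-WT, 85.5 and 83.0 in Tet2-Mut and 240.5 and 201 in Tet2-KO, so that both Tet2-KO libraries lay above the rest. In Tet2-Mut against Tet2-WT 0 rose and 2 fell, the matrix cross-linking gene Loxl2 (-1.07) and Id2, an inhibitor of basic helix-loop-helix factors (-0.79), with a median of 0.17. Between Tet2-KO and Tet2-Mut, 6 were higher in Tet2-KO and 0 lower, with a median of 0.62, among them Id2 (1.11), Snai1 (1.37), Ets1 (1.34) and Smad3 (0.46), a mediator of TGF-beta signalling. The 10 calls against Tet2-WT became 1 when any 1 library of Tet2-WT or the first of Tet2-KO was left out, 7 without the second of Tet2-KO, and 16 and 15 without Tet2-Mut replicates 1 and 2.

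Of 28 other cadherins and catenins listed, 19 were in the table. In Tet2-KO against Tet2-WT 2 rose, Cdh11 (1.42, SE 0.33, limma adjusted p = 0.0389), a cadherin of mesenchymal cells that also lies on chromosome 8, and Cdh10 (1.15, adjusted p = 0.0459), and 0 fell, with a median of 0.04. Neither passed when any 1 library of Tet2-WT or the first of Tet2-KO was left out, and 3 did without either Tet2-Mut library. Cdh10 also missed the threshold without the second library of Tet2-KO and with chromosome 8 centred. The normalized count of Cdh11 was 53.3, 47.1 and 47.2 in Tet2-WT, 103 and 106 in Tet2-Mut, and 189.9 and 93.0 in Tet2-KO. All 4 libraries of the altered genotypes lay above Tet2-WT. Only Ctnnal1 (-0.45), which encodes alpha-catulin, fell in Tet2-Mut against Tet2-WT, and 0 rose, which is 1 of 19 where 3.43% of all genes passed. In Tet2-KO against Tet2-Mut, Ctnnal1 was higher (0.40) and Cdh15, the M-cadherin gene, which lies on chromosome 8 as well, lower (-1.67, adjusted p = 0.0408). With chromosome 8 centred Cdh15 was at -1.15 and missed the threshold, as it did without each of the 7 libraries in turn (adjusted p up to 0.189 over all settings).

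Cells of the primitive streak undergo an EMT, and genes of the streak were followed as a further list. Of 16 tested, 7 rose in Tet2-KO against Tet2-WT and 0 fell, with a median log2 fold change of 1.08. The gene T, which encodes brachyury, had normalized counts of 14.1, 30.1 and 9.44 in Tet2-WT, 27.8 and 15.4 in Tet2-Mut, and 520.2 and 333 in Tet2-KO. The Tet2-KO libraries stood far above the rest, with a log2 fold change of 4.62 against Tet2-WT (SE 0.51, limma adjusted p = 0.00522). Wnt3, a ligand of streak induction (2.89), and the transcription factor genes Sp5 (2.79) and Lhx1 (2.88) rose with it. Eomes (-0.82), a T-box factor of the streak, was the 1 gene that fell in Tet2-Mut against Tet2-WT, and 0 rose. In Tet2-KO against Tet2-Mut 7 were higher and 0 lower, with T at 4.26 and Eomes at 1.13. The 7 calls against Tet2-WT became 3, 2 and 3 without Tet2-WT replicates 1, 2 and 3 and 1 without Tet2-KO replicate 1.

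Fibroblasts form the feeder layer of ESC cultures, and most of the markers listed for them stood higher in Tet2-KO, beside Cdh2 and Vim. Of 30 markers, 27 were in the table and Dcn, Lum and Fap were not. Of the 27, 25 had a positive log2 fold change in Tet2-KO against Tet2-WT. Pdgfra had mean normalized counts of 41.6 in Tet2-WT and 44.4 in Tet2-KO, and S100a6 of 3480 and 3250. In Tet2-KO against Tet2-WT 10 rose and 0 fell, with a median log2 fold change of 1.12, led by the contractile gene Tagln (2.27, SE 0.30, limma adjusted p = 0.00768), the matrix gene Thbs1 (1.76) and the collagen genes Col5a1 (1.62) and Col1a1 (1.25). The 10 calls became 1, 2 and 0 without Tet2-WT replicates 1, 2 and 3, 2 without Tet2-KO replicate 1 and 16 without either Tet2-Mut library. In Tet2-KO against Tet2-Mut 4 were higher, Col5a1 (1.69), Tagln (1.803), Pdgfrb (1.61), a receptor of mesenchymal cells, and Col1a1 (0.98), and 0 lower, with a median of 0.60. In Tet2-Mut against Tet2-WT 0 of 27 passed with limma, 5 had an unadjusted p under 0.05, edgeR called 0 and DESeq2 called 1, and the median was 0.39. The summed normalized count of the 27 markers was 23711, 23356 and 23958 in Tet2-WT, 25023 and 27356 in Tet2-Mut, and 47504 and 32476 in Tet2-KO, and none was at 0 in any library. Tet2-KO replicate 1, the library with the highest sum, was also the highest of the 7 for Cdh2, Vim, Fn1 and Zeb2. The other members were highest in a Tet2-Mut library, Twist1, Zeb1 and Epcam in replicate 2 and Cdh1 and Snai2 in replicate 1. Twist1 was at 350.2 in Tet2-Mut replicate 2 and at 325 in Tet2-KO replicate 1. Fibroblasts express Vim, Fn1, Cdh2, Zeb2 and Twist1, and the part of residual feeder cells in the members' levels was not tested. In the Tet2-Mut replicates the markers' median log2 level stood 0.64 and 0.21 above Tet2-WT. On the same scale Vim stood at -0.49 and -0.82 there, Cdh2 at 0.51 and -0.31 and Fn1 at 0.19 and -0.25. Zeb2 stood at 1.06 and 1.15 and Twist1 at 0.29 and 1.43.

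The list calls that involve Tet2-Mut also moved with single libraries. Against Tet2-WT, 0 genes of the epithelial, EMT, cadherin, streak and fibroblast lists passed without any 1 Tet2-WT library, while 14, 9, 1, 2 and 3 passed without Tet2-Mut replicate 1. The epithelial and EMT lists gave 3 and 6 calls without either Tet2-KO library, and the epithelial and streak lists 0 and 0 without Tet2-Mut replicate 2. Between Tet2-KO and Tet2-Mut, the epithelial, EMT and fibroblast lists gave 2 calls each without any 1 Tet2-WT library or Tet2-KO replicate 1, 3 each without Tet2-Mut replicate 2, and 15, 16 and 11 without Tet2-Mut replicate 1; the fibroblast list gave 9 without Tet2-KO replicate 2. The streak list gave 4 to 8 there, lowest without Tet2-WT replicate 2 or Tet2-KO replicate 1, and the cadherin list 0 to 2.

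**Figure D4:**
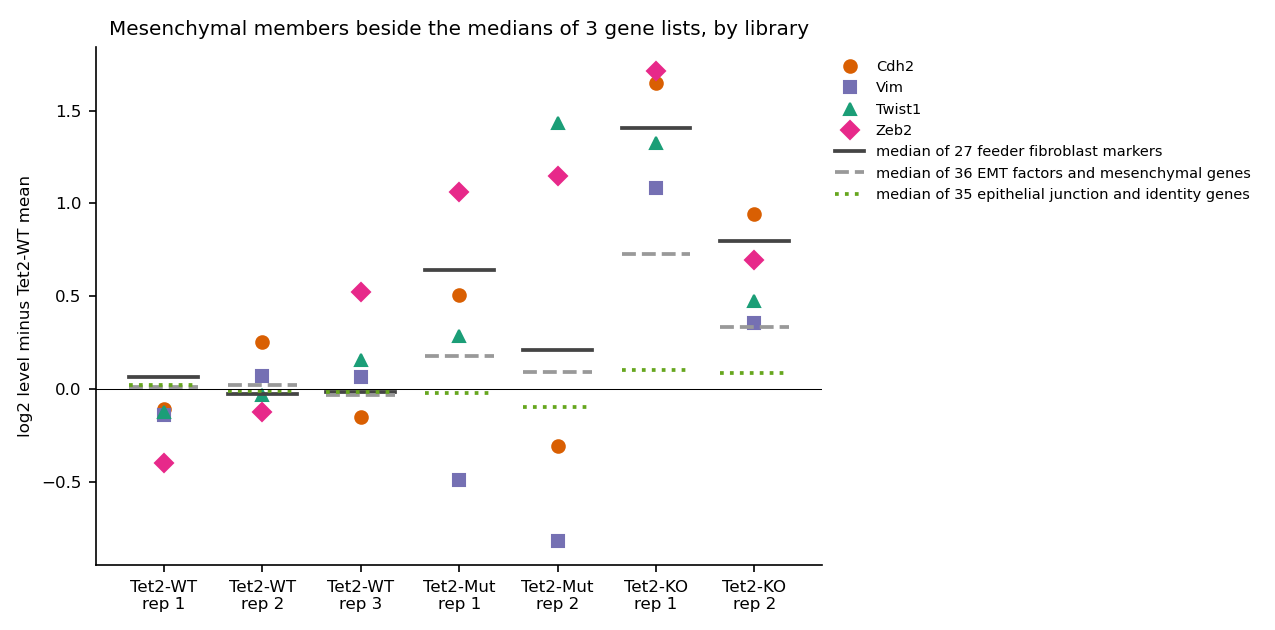
Log2 level minus the Tet2-WT mean in each library for Cdh2, Vim, Twist1 and Zeb2 (symbols) and the median over 27 feeder fibroblast markers, 36 EMT factors and mesenchymal genes and 35 epithelial genes (lines). In Tet2-KO replicates 1 and 2 the fibroblast median stood at 1.41 and 0.80, the EMT median at 0.73 and 0.34 and the epithelial median at 0.10 and 0.08.

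Likeness of pattern was measured as Pearson's r of the log2 level over the 7 libraries, among 13523 genes with a mean normalized count of at least 50, and is a description only, since the libraries form 3 groups and the nearest of so many genes is always close. The genes most like Cdh1 were Rbpms, also on chromosome 8 (r = 0.984), Sepsecs (0.979) and Samd9l (0.977). The nearest to Cdh2 were Pwwp2b (0.994), Ccn4 (0.994) and Timp2 (0.991), and the nearest to Vim were Clip2 (0.994), Itm2a (0.981) and Csrp1 (0.980). For Twist1 they were Itga8 (0.992), Fndc9 (0.990) and Unc45a (0.990), for Zeb2 Htr1b (0.996), Set (0.993) and Nolc1 (0.991), for Fn1 E130317F20Rik (0.991), Septin3 (0.984) and Gnaz (0.981), for Zeb1 Eci1 (0.987), Gm45871 (0.980) and Dnajc15 (0.979), and for Epcam Slx1b (0.970), Zrsr2 (0.966) and 4833413G10Rik (0.959). Ccn4, for example, had normalized counts of 56.4 ± 18 in Tet2-WT (SD, n = 3), 65.6 ± 38.2 in Tet2-Mut (n = 2) and 246 ± 90.3 in Tet2-KO (n = 2), the high level in Tet2-KO and the low level in the others that Cdh2 shows.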

How the data were processed

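RNA-seq of 7 libraries was used, and the series' 18 CUT&Tag and 3 bisulfite samples were not analysed here. What the authors deposited is a normalized signal per gene: the count over the library's DESeq2 size factor, on a linear scale. Reads had been handled with STAR 2.7.3a, Trim Galore 0.6.5, DESeq2 and featureCounts on build mm10, per the submitters' processing notes. The sources used here do not give the annotation or the strand setting. In each library 100% of the values were whole multiples of 1 step within 0.01 reads, which gave back the reads. Between 72.1% and 75.2% of values from 1 to 20 reads were even, so both mates of a pair may have been counted. The smallest total of any gene was 71 reads, so the table had been filtered. Chi-square over degrees of freedom was 7.13 or more for every pair of libraries, above sampling noise. The Tet2-WT pairs (7.13 to 13.2) lay closer together than the clones of Tet2-Mut (44.0) or Tet2-KO (33.3). Tet2-Mut replicate 1 lay closer to every Tet2-WT library (22.6 to 40.6) than to Tet2-Mut replicate 2. Tet2-KO replicate 2 lay closer to Tet2-WT replicates 2 (29.1) and 3 (32.6) than to Tet2-KO replicate 1, but not to Tet2-WT replicate 1 (36.4). The shared estimate of the spread can understate that between clones.

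Genes with a normalized count of at least 10 in at least 2 libraries (17338) were tested with limma 3.58.1 (R 4.3.3) on log2(normalized count + 1), which understates changes of low genes, in 1 model of group means with a mean trend, with Benjamini-Hochberg adjustment at 0.05 (residual degrees of freedom 4, prior 5.03). Positions are from RefSeq GRCm38.p6, the mm10 build, where 16103 genes (92.9%) matched by symbol. The steps were tested on simulated counts with the same relative spread for every gene and group and no shift of chromosome 8. That simulation does not show how calls behave with clones that vary more than the Tet2-WT samples. Members, lists and tests were chosen with earlier results of these data known. The genes named were the 9 members, the 4 genes of lowest p in each list and comparison (fewer where fewer passed), the 3 genes most like each member and Tet2; Ovol2, Snai1 in Tet2-KO against Tet2-WT and Cdh3 were named after their values were seen, and a gene of the epithelial list is not reported here by name. Alternatives were pseudocounts of 0.5 and 10, 2 other filters, 2 scalings, a replicate block, a fit of only the 2 groups compared, no mean trend, edgeR 4.0.16, DESeq2 1.42.0, leaving out each library and, chosen after seeing the data, centring chromosome 8.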

Additional observations from a re-analysis of the deposited data

How the results depend on the processing

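The results above rest on groups of 2 and 3 libraries, and the number of calls moved with the estimate of the spread. Of 189 log2 fold changes of members recomputed without 1 library, 149 kept direction and side of the threshold, 12 lost the call, 14 gained one and 14 changed sign; under other settings 297 of 321 kept both. The members past the test numbered 0 to 3 without 1 library in Tet2-KO against Tet2-WT, 0 to 4 in Tet2-Mut against Tet2-WT and 1 to 4 in Tet2-KO against Tet2-Mut, and all genes past it 85 to 2158, 6 to 2198 and 530 to 2679. With only the 2 groups compared these were 2 members and 2153 genes, 2 and 901, and 0 and 0. With no mean trend they were 0 and 19, 0 and 0, and 0 and 10. With DESeq2 they were 3 and 1971, 2 and 1551, and 3 and 1815, and edgeR called 2 members in Tet2-KO against Tet2-WT. Quantile normalization left 0 members in Tet2-Mut against Tet2-WT. Centring chromosome 8 left 0 members and 349 genes there, and 1 member and 422 genes in Tet2-KO against Tet2-Mut, where Cdh1 went to 0.19; that construction removes the chromosome's shift. With a replicate block the counts were 0 and 15, 0 and 7, and 1 and 467. Same-numbered libraries correlated in their deviations at -0.073 to 0.087, and differently numbered ones at -0.126 to 0.126. In a group of 2 the deviations mirror each other, so these values cannot decide whether the numbers pair the samples. The causes of the other moves were not tested.

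Signs turned as follows, besides that of Cdh1 above. Quantile normalization gave -0.027 for Cdh1 in Tet2-KO against Tet2-WT, -0.028 for Epcam in Tet2-Mut against Tet2-WT and -0.0071 for Twist1 in Tet2-KO against Tet2-Mut, where edgeR gave -0.0104 and DESeq2 -0.0087. Without 1 library, the log2 fold change in Tet2-KO against Tet2-WT ran from -0.045 to 0.11 for Cdh1, -0.031 to 0.012 for Epcam and -0.11 to 0.40 for Snai2. In Tet2-Mut against Tet2-WT it ran from -0.31 to 0.51 for Cdh2, -0.25 to 0.19 for Fn1, -0.32 to 0.44 for Zeb1 and -4.40 to 0.59 for Snai2. In Tet2-KO against Tet2-Mut it ran from -0.53 to 0.62 for Twist1, -0.51 to 0.26 for Zeb1, -0.41 to 0.61 for Zeb2 and -0.45 to 4.55 for Snai2. The ends of -4.40 and 4.55 are fitted values against 1 library at 0 reads, set by the pseudocount, and are neither folds nor bounds. Counting error was not separated from the spread between clones for Snai2, which had 0 reads in Tet2-Mut replicate 2 and 18 to 30 in each other library.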
